A study of Gallus gallus with 9 samples.

Results

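Ion channel genes of the voltage-gated superfamily and of the potassium channel families were examined in chick retinal pigment epithelium (RPE) at the start of its reprogramming toward retina. The members were chosen by gene symbol alone, as every row of the deposited table whose symbol starts with KCN, CACNA, CACNB, CACNG or SCN and ends as a channel gene of those families does. This gave 85 of 16635 genes, of which 60 belong to potassium, 16 to calcium and 9 to sodium channels. The rule goes beyond voltage-gated pores: the inward rectifier (KCNJ) and tandem-pore (KCNK) potassium channels lack a voltage sensor, and KCNAB, KCNE, KCNIP, KCNMB, CACNA2D, CACNB, CACNG and SCN beta genes encode accessory subunits. A further 5042 rows carry no symbol and could not be searched.

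Ion channels set the membrane potential of a cell and let calcium in when that potential changes. In the mature RPE, the inward rectifier KCNJ13 in the apical membrane returns potassium to the subretinal space and so keeps the sodium pump of that membrane supplied, and L-type calcium channels take part in secretion. Voltage-gated sodium channels and most fast potassium channels are better known from neurons and muscle.

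The RPE of White Leghorn chick embryos at embryonic day 4 was collected by laser capture microdissection, in which cells are cut from tissue sections under a microscope. In the rRPE group (reprogrammed RPE, n = 3), the retina had been surgically removed, a bead soaked in FGF2, a growth factor, had been placed in the eye cup, and only RPE close to the bead was captured 6 h later. In the t-rRPE group (transiently reprogrammed RPE, n = 3), tissue was taken 6 h after the same retinectomy with no FGF2. The RPE group (n = 3) was intact RPE at embryonic day 4. Whether it was collected at the time of surgery or 6 h later, as the injured groups were, is not stated. Each library came from 1 embryo, so that the spread within a group includes differences between embryos and differences in what was captured.

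Between 26167206 and 45563924 reads per library were counted on genes, and 1 read was worth 0.768 to 1.30 normalized counts. Normalized counts are not corrected for gene length, so levels are compared only between libraries; counts set side by side for different genes say how many reads were behind a value, not which gene was expressed more. All 14 RPE identity genes looked up were found, and their summed counts were 261680.0 to 418798 in rRPE, 335830.0 to 458177 in t-rRPE and 344299 to 392046 in RPE libraries. Among them only *MITF* (lower in rRPE than in RPE) and *OTX2* (lower in rRPE than in t-rRPE) passed the limma test. *OTX2* was also lower in rRPE than in RPE, by less than the fold threshold (limma log2 fold change -0.73, adjusted p = 0.0406). *MITF* was lower in t-rRPE than in RPE without overlap (limma log2 fold change -1.29, adjusted p = 0.0742), and DESeq2 called it there. Summed lens markers moved with the groups: the sum over 8 of 10 lens genes was 19819 to 45677 in rRPE, 43109.5 to 362043 in t-rRPE and 389 to 876 in RPE libraries. *ASL1* alone had 17337.5 to 332972 normalized counts in the injured libraries. The beaded filament gene *BFSP1* had no read in any RPE library while every injured library had some. *BFSP2*, also among the 8, overlapped RPE in both injured groups. Its counts were 304, 249 and 125 in rRPE, 183, 966 and 847 in t-rRPE and 825, 341 and 75.3 in RPE libraries. The sum over 10 of 12 endothelial genes was 5101 to 5182 in rRPE, 3539.8 to 5762 in t-rRPE and 7165 to 13548 in RPE libraries. Of the 10, 6 passed an unadjusted p of at most 0.05 by limma in t-rRPE against RPE (60.0%, against 12.4% of all genes). In rRPE against RPE 5 did (50.0%, against 12.0%). The median log2 fold changes were -2.06 and -1.68. Limma and edgeR called 1 gene, *CDH5*, as lower in both comparisons. DESeq2 called 4 in each, while it called 3.55% and 4.10% of all genes with an adjusted p. Against RPE, *PECAM1*, *CLDN5* and *ERG* had limma log2 fold changes above 0 in rRPE (0.15, 0.03 and 1.61), and *ERG* also in t-rRPE (0.14). *PECAM1* alone had 1972 to 2804 normalized counts in rRPE libraries. The sum over 13 of 16 neuronal genes was 18373 to 21796 in rRPE, 19089 to 23769 in t-rRPE and 16504 to 20989 in RPE libraries. *TUBB3* alone had 7325 to 17152 normalized counts. The median log2 fold change over the 13 was -0.96 in t-rRPE and -0.4 in rRPE against RPE. In each comparison 2 passed an unadjusted p of at most 0.05 by limma (15.4%, against 12.4% and 12.0% of all genes). Limma and edgeR called 0, and DESeq2 called *NEFM* lower in t-rRPE and *STMN2* higher in rRPE. The summed mesenchyme markers were lower in t-rRPE than in RPE without overlap. The sum over all 14 was 12117 to 14520 in rRPE, 9757 to 12131 in t-rRPE and 12761 to 18042 in RPE libraries. In t-rRPE against RPE, 8 of the 14 passed an unadjusted p of at most 0.05 by limma (57.1%, against 12.4% of all genes). The median log2 fold change over the 14 was -2.30, while *COL1A2*, *PDGFRB* and *TWIST2* had values above 0 (0.33, 1.87 and 1.62). *COL1A2* alone had 7346 to 9772 normalized counts in t-rRPE libraries. Limma and edgeR called 0 of the 14 and DESeq2 4 (*COL1A1*, *DCN*, *FOXC2* and *POSTN*). The sum over 7 of 10 erythroid genes was 149498 to 376977 in rRPE, 102517 to 275874 in t-rRPE and 192177 to 297177 in RPE libraries. The sum over 8 of 10 muscle and smooth muscle genes was 9809 to 12392 in rRPE, 9667 to 12682 in t-rRPE and 10452 to 13218 in RPE libraries. In rRPE against RPE, 1 of the 8 passed an unadjusted p of at most 0.05 by limma (12.5%, against 12.0% of all genes). This was *TAGLN*, which limma, edgeR and DESeq2 called higher in rRPE (limma log2 fold change 2.98, adjusted p = 0.0261). *MYL9*, *DES* and *ACTC1* had limma log2 fold changes below 0 there (-0.34, -0.79 and -1.84). The part of captured lens, vessel, mesenchyme, neural, blood or muscle tissue in the channel results was not tested. In bulk tissue of this kind, fewer cells of a type and less RNA per cell cannot be told apart.

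Few reads lay behind most channel genes, which limits the precision of their values. Their median over genes of the mean normalized count was 69.1, against 380.5 over all 16535 genes tested; 39 of the 85 averaged at least 100 normalized counts, 9 at least 1000, and 25 stayed under 20. Only 30 members (35.3%) had a read in all 9 libraries, against 65.6% of all genes tested, and each library held between 18 and 30 members with no read at all. All 85 passed the filter of at least 20 normalized counts summed over the libraries. The spread between libraries of a group was wide: the median SD within groups was 1.96 log2 units for channel genes and 0.69 for all genes. This SD holds counting error at few reads as well as differences between embryos and captures. The 2 sets of genes were not matched for counts. In 20 members (23.5%, against 9.74% of all genes) at least 1 group held both a library at 0 and a library above 100 normalized counts.

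**Figure D1:**
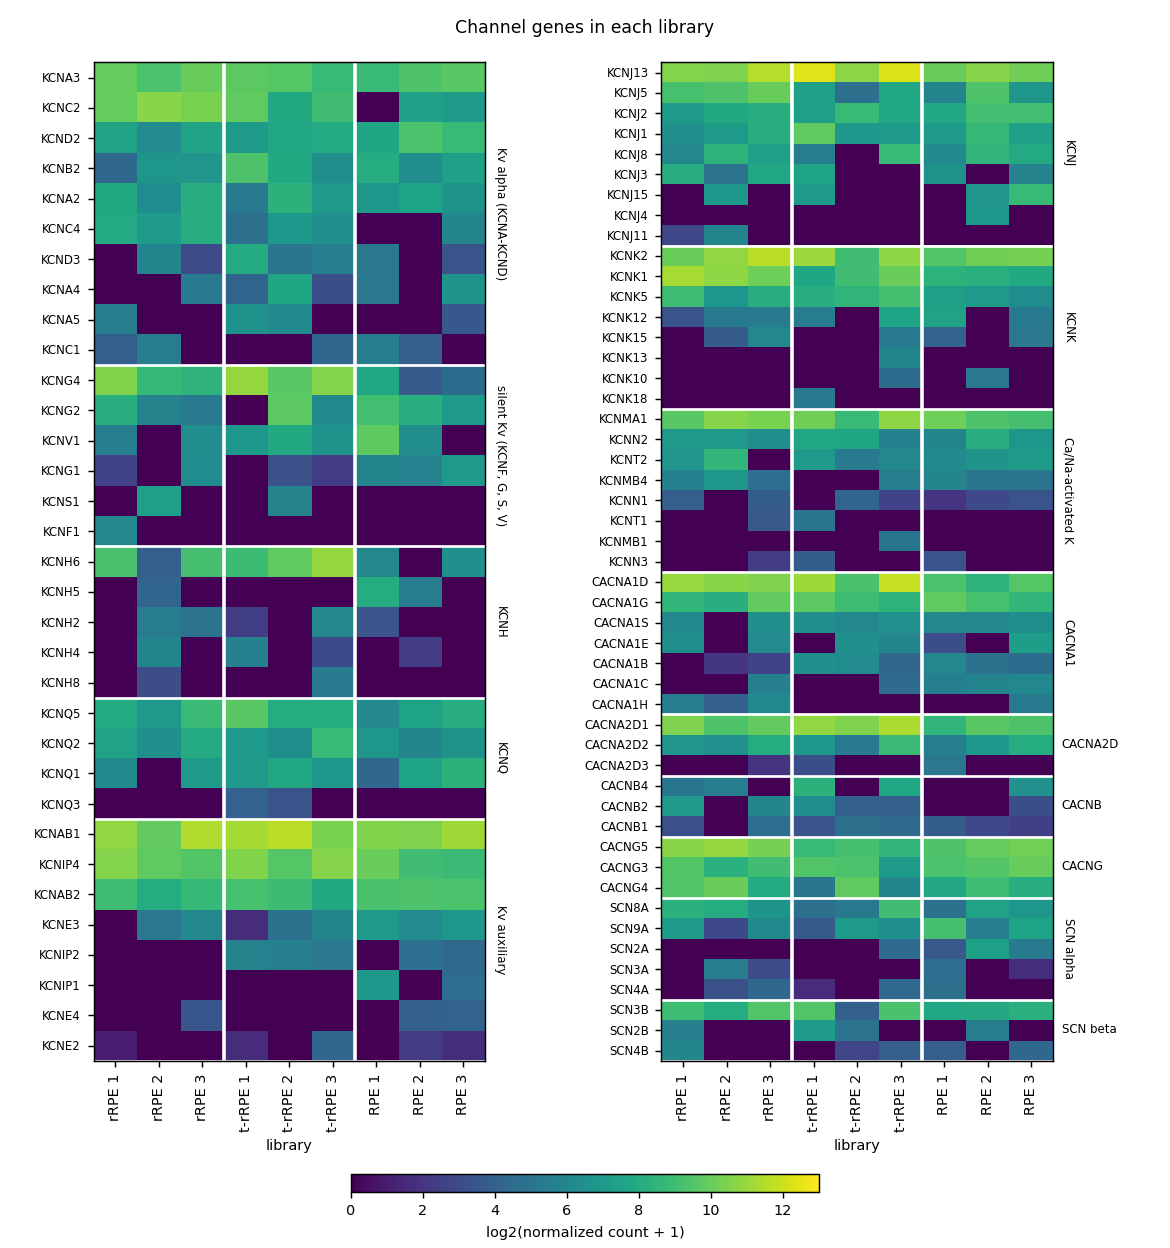
Heat maps of 82 of the 85 channel genes, 1 row per gene grouped by family and 1 column per library, coloured by log2(normalized count + 1). Rows near the top of most families, such as *KCNJ13*, *KCNAB1* and *CACNA1D*, have a read in all 9 libraries, while dark cells (0 reads) fill much of the lower rows, with 18 to 30 such genes per library over all 85.

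The 85 genes together took a larger share of the counts after injury. Their summed normalized counts were 27085, 23454 and 29459.5 in rRPE, 32010.2, 22207 and 32346 in t-rRPE and 16913, 17821 and 18809.6 in RPE libraries. Every rRPE and every t-rRPE library stood above every RPE library, and the ratio of group means was 1.49 for rRPE over RPE and 1.62 for t-rRPE over RPE; no test was made of these sums. Channel genes made up 0.0694% to 0.0849% of all counts in rRPE, 0.0632% to 0.0948% in t-rRPE and 0.0483% to 0.0537% in RPE libraries. A few genes carried the sum. In t-rRPE, *KCNJ13* alone accounted for 25.2% of the difference from RPE, *CACNA1D* for 14.4%, *CACNA2D1* for 12.7% and *KCNG4* for 12.5%. In rRPE, the leading genes were *KCNK1* with 17.2%, *KCNC2* with 13.8%, *CACNA1D* with 12.8% and *KCNK2* with 11.4%. The median log2 fold change over the 85 genes was only 0.13 for rRPE and 0.25 for t-rRPE against RPE, beside 0 over all genes tested in both comparisons.

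**Figure D2:**
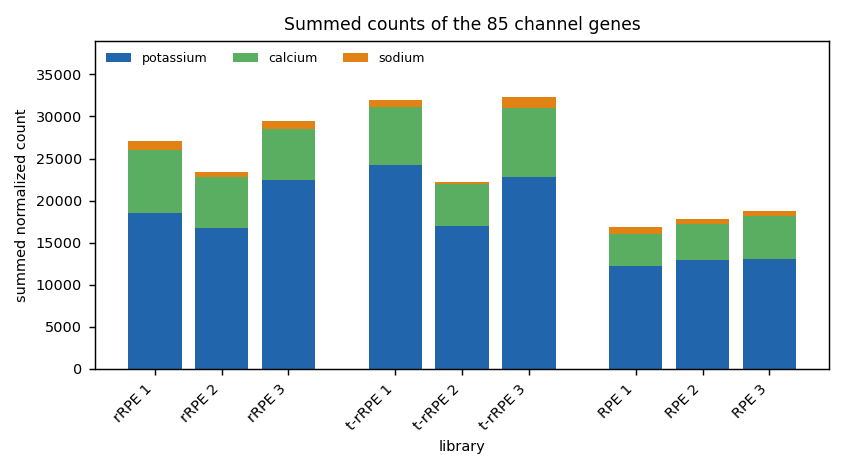
Summed normalized counts of the 85 channel genes in each library, stacked by the ion conducted (60 potassium, 16 calcium and 9 sodium channel genes). The rRPE bars reach 23454 to 29459.5 and the t-rRPE bars 22207 to 32346, all above the RPE bars, which end between 16913 and 18809.6.

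Retinectomy alone was compared with intact RPE to ask which channel genes respond to the injury. A differentially expressed gene (DEG) was one with a limma adjusted p-value (Benjamini-Hochberg, over all genes tested) of at most 0.05 and a log2 fold change of at least 1 in either direction. Of the 85 members 1 was a DEG, *KCNG4*, up-regulated in t-rRPE; across all genes tested 0.671% were called in either direction, 0.357% as up-regulated and 0.314% as down-regulated. At an unadjusted p of at most 0.05, 11 members were higher (12.9%, against 5.97% of all genes) and 7 lower (8.24%, against 6.45%). The t-rRPE and RPE libraries did not overlap in 14 members (16.5%, against 15.1% of all genes), 9 of them higher in t-rRPE (10.6%, against 7.32%) and 5 lower (5.88%, against 7.83%). On the reads behind the same table edgeR called 0 members (against 0.290% of all genes) and DESeq2 6 of the 72 to which it gave an adjusted p (8.33%, against 3.55% of all genes with one), among them *CACNA1D*, *CACNA2D1*, *CACNG5* and *KCNJ13* beside *KCNG4*.

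Adding FGF2 to the retinectomy was compared first with intact RPE. No channel gene was a DEG between rRPE and RPE by limma, while 1.03% of all genes were; 13 members passed an unadjusted p of at most 0.05 (15.3%, against 12.0% of all genes), 9 of them higher (10.6%, against 6.97%) and 4 lower (4.71%, against 5.03%). edgeR called 0 members (against 0.611% of all genes) and DESeq2 3 of the 68 with an adjusted p (4.41%, against 4.10% of all genes with one), among them *KCNG4* and *KCNK1*, both higher in rRPE. The libraries of rRPE and RPE did not overlap in 12 members (14.1%, against 18.6% of all genes), 7 of them higher in rRPE (8.24%, against 9.71%) and 5 lower (5.88%, against 8.94%).

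To ask what FGF2 adds to the injury, rRPE was compared with t-rRPE. No bead is described for t-rRPE, and only rRPE was limited to cells near a bead. Effects of FGF2, of the bead and of the captured region therefore cannot be told apart. Again no channel gene was a DEG by limma (0.0544% of all genes were), and edgeR called 0 (against 0.0363%) and DESeq2 1 of the 66 with an adjusted p, *CACNG5* (1.52%, against 1.66% of all genes with one). At an unadjusted p of at most 0.05, 8 members passed (9.41%, against 9.31% of all genes), 5 of them higher (5.88%, against 5.35%) and 3 lower (3.53%, against 3.96%). The libraries of rRPE and t-rRPE did not overlap in 9 members (10.6%, against 12.5% of all genes), 6 of them higher in rRPE (7.06%, against 6.84%) and 3 lower (3.53%, against 5.68%). The 3 comparisons share libraries, so their values are set side by side and not counted as separate evidence.

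**Figure D3:**
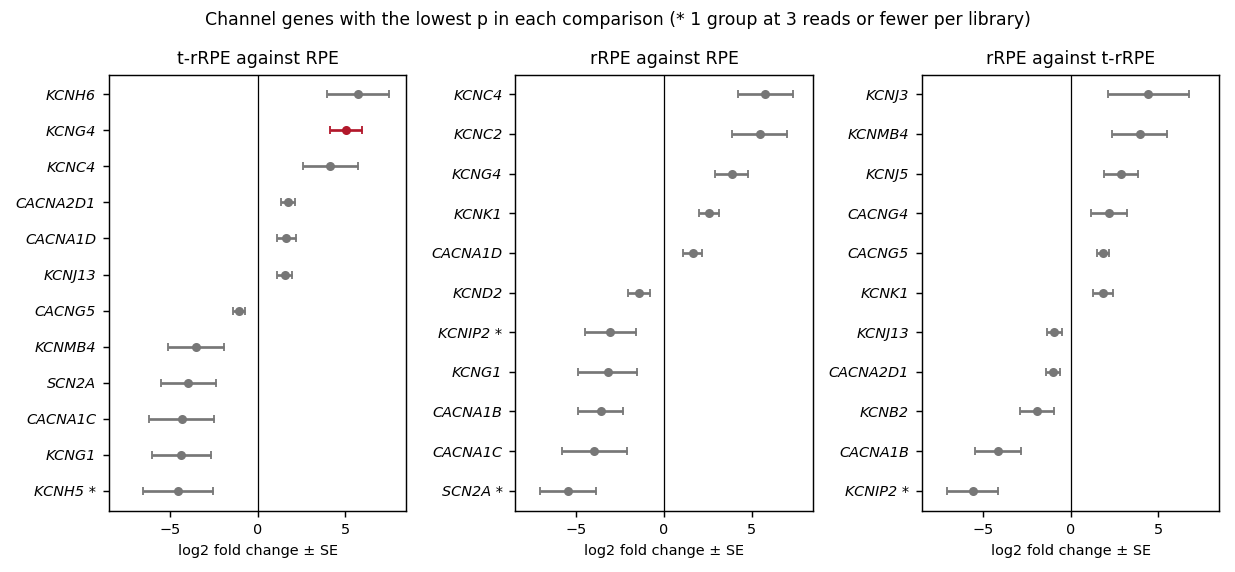
Fitted log2 fold changes ± SE of up to 6 higher and 6 lower channel genes among those with the lowest unadjusted p in each comparison, from genes averaging at least 20 normalized counts and reported here. The filled red point marks *KCNG4* in t-rRPE against RPE (5.05), the only member called; an asterisk marks genes with 1 group at 3 reads or fewer in each library, whose fitted value is no fold.

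The silent Kv subunits (KCNF, KCNG, KCNS and KCNV, 6 genes found) form no channel alone and join Kv subunits of the KCNB type, whose gating they alter. *KCNG4* had 1472, 419 and 353 normalized counts in rRPE libraries, 2001, 817 and 1556 in t-rRPE libraries and 216, 12.51 and 23.1 in RPE libraries. All injured libraries stood above all intact ones, by the least between rRPE library 3 and RPE library 1, and RPE library 1 stood far above its own group. In t-rRPE the gene rose (limma log2 fold change 5.05 ± 0.94 (SE), adjusted p = 0.0413; DESeq2 adjusted p = 0.000186, edgeR adjusted p = 0.174). The limma call held without RPE library 1 (log2 fold change 6.24, adjusted p = 0.041) and was lost without each of the other 8 libraries. The adjusted p was then 0.127, 0.129 or 0.133 without rRPE library 1, 2 or 3, 0.213, 0.104 or 0.178 without t-rRPE library 1, 2 or 3, and 0.239 or 0.262 without RPE library 2 or 3. In rRPE the log2 fold change of *KCNG4* over RPE was 3.87 ± 0.94 (SE; limma, adjusted p = 0.0863). Of the fits that left out 1 library, only that without RPE library 1 passed the threshold (limma adjusted p = 0.0416). Over the 21 alternative fits 3 called it, and the limma adjusted p reached 0.39. The rRPE and t-rRPE libraries overlapped (limma log2 fold change -1.18 ± 0.94 (SE), adjusted p = 0.764). The lens marker *ASL1*, the avian delta-crystallin gene, was likewise higher in every injured library (17337.5 to 332972 normalized counts) than in every RPE library (13.5 to 232). Within t-rRPE, *ASL1* reached 332972 in library 2, against 39430.0 and 160226 in the others, and *KCNG4* was lowest of its group in library 2. The part of lens tissue in the *KCNG4* counts was not tested.

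Other silent subunits did not pass the test. *KCNG2* had 279, 54.3 and 41.1 normalized counts in rRPE libraries, 0, 852 and 74.3 in t-rRPE libraries and 537, 284 and 144 in RPE libraries, with a range within t-rRPE that spans all the other libraries. *KCNG1* had 5.08, 0 and 80.1 normalized counts in rRPE libraries, 0, 8.40 and 3.91 in t-rRPE libraries and 57.7, 54.0 and 124 in RPE libraries. Its t-rRPE counts all lay below the RPE counts (limma log2 fold change -4.36 ± 1.68 (SE), adjusted p = 0.333), and rRPE library 3 lay among the RPE libraries. *KCNV1*, which was chosen after its values were seen, reached 881 in RPE library 1 and 0 in RPE library 3. *KCNF1* and *KCNS1* had reads in only 1 and 2 of the 9 libraries.

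Among the 11 voltage-sensing Kv alpha genes (KCNA to KCND), the summed counts were 2754, 3284 and 3606 in rRPE, 3002, 2357 and 1689 in t-rRPE and 1131, 1743 and 1977 in RPE libraries, with rRPE apart from RPE and t-rRPE overlapping it. *KCNC2*, which encodes a fast, high-threshold delayed rectifier of rapidly firing neurons, had 982, 1658 and 1344 normalized counts in rRPE libraries, 922, 238 and 512 in t-rRPE libraries and 0, 175 and 145 in RPE libraries. The order rRPE above t-rRPE above RPE held with no overlap between any pair of groups. None of the differences passed the test across all genes: the log2 fold change was 5.46 ± 1.57 (SE; limma, adjusted p = 0.146) for rRPE over RPE, 4.03 ± 1.57 (SE; limma, adjusted p = 0.334) for t-rRPE over RPE and 1.42 ± 1.57 (SE; limma, adjusted p = 0.816) for rRPE over t-rRPE. RPE library 1 had no *KCNC2* read while the other RPE libraries had over 100 normalized counts, and without it the log2 fold change of rRPE over RPE was 3.02 (limma adjusted p = 0.082); DESeq2 and edgeR gave 3.64 with all libraries. *KCNC2* and *KCNG4* were the only members above RPE without overlap in both injured groups (2.35% of members, against 2.84% of all genes).

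*KCNC4*, a gene of the same KCNC family, had 249.7, 140.0 and 274 normalized counts in rRPE libraries, 27.1, 123 and 92.5 in t-rRPE libraries and 0, 0 and 58.4 in RPE libraries. Its rRPE libraries stood above all others, whereas t-rRPE and RPE overlapped (rRPE over RPE, limma log2 fold change 5.77 ± 1.57 (SE), adjusted p = 0.12). *KCND2*, a subunit of the rapidly inactivating A-type current of neuronal dendrites and heart, had 189, 77.3 and 192 normalized counts in rRPE libraries, 137, 214 and 242 in t-rRPE libraries and 209, 629 and 431 in RPE libraries. Its counts were lower in rRPE than in RPE without overlap (limma log2 fold change -1.44 ± 0.63 (SE), adjusted p = 0.395), and t-rRPE overlapped RPE by a narrow margin.

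*KCNB2*, a delayed rectifier gene, had 19.3, 118 and 109 normalized counts in rRPE libraries, 663, 241 and 88.6 in t-rRPE libraries and 261, 80.6 and 175 in RPE libraries, highest in t-rRPE library 1 (limma log2 fold change -1.92 ± 0.97 (SE), adjusted p = 0.577 for rRPE against t-rRPE). *KCNA3*, another delayed rectifier, best known from lymphocytes, had 977, 649 and 998 normalized counts in rRPE libraries, 833, 756 and 455 in t-rRPE libraries and 426, 656 and 828 in RPE libraries, and the groups overlapped in every comparison. Further Kv alpha genes included *KCNC1*, which averaged 15.4 normalized counts over the 9 libraries, and *KCNA2*, which averaged 166, and neither passed a test.

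Of the 5 KCNH genes, *KCNH6* was the one with many reads. It encodes a channel of the ether-a-go-go related (ERG) type, which recovers fast from inactivation and carries current as a cell repolarizes. *KCNH6* had 615, 14.6 and 569.8 normalized counts in rRPE libraries, 481, 918 and 1963 in t-rRPE libraries and 65.3, 0 and 90.7 in RPE libraries. All t-rRPE libraries lay above all RPE libraries (limma log2 fold change 5.71 ± 1.77 (SE), adjusted p = 0.222), but rRPE library 2 fell within the RPE range. *KCNH5*, an ether-a-go-go channel gene, had 0, 17.8 and 0 normalized counts in rRPE libraries, 0, 0 and 0 in t-rRPE libraries and 262, 45.4 and 0 in RPE libraries; against the floor of 3 reads per library the t-rRPE level was at least 26.2-fold lower than the RPE mean, and without RPE library 1 at least 5.8-fold; RPE library 3 was also at 0 and the fit did not pass the test (limma adjusted p = 0.393). The other 3 KCNH genes averaged under 20 normalized counts.

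KCNQ subunits carry slow, non-inactivating potassium currents such as the neuronal M-current, and they have been described in primate RPE. *KCNQ5* had 247, 129.5 and 465 normalized counts in rRPE libraries, 809, 265 and 261 in t-rRPE libraries and 68.2, 188 and 274 in RPE libraries, with overlap between all groups. *KCNQ1*, the heart and epithelial member that pairs with KCNE subunits, had 74.1, 0 and 133 normalized counts in rRPE libraries, 127, 217 and 117 in t-rRPE libraries and 20.2, 184 and 322 in RPE libraries, again with overlap.

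Accessory subunits of Kv channels numbered 8. *KCNAB1*, a cytoplasmic beta subunit related to aldo-keto reductases, had 1912, 933 and 2798 normalized counts in rRPE libraries, 2393, 3262 and 1339.9 in t-rRPE libraries and 1461, 1410.2 and 2257 in RPE libraries, and the groups overlapped (limma log2 fold change 0.39 ± 0.42 (SE), adjusted p = 0.733 for t-rRPE against RPE). *KCNAB2*, its paralog, was measured at 501, 260.1 and 413 normalized counts in rRPE libraries, 584, 489 and 241 in t-rRPE libraries and 613, 654 and 641 in RPE libraries. The 3 RPE libraries lay within a narrow range above all injured libraries, but the differences were not past the threshold (limma log2 fold change -0.75 ± 0.44 (SE), adjusted p = 0.57 for rRPE and -0.63 ± 0.44 (SE; limma, adjusted p = 0.617) for t-rRPE). In RefSeq *KCNAB2* overlaps *CHD5* and *NPHP4*, and because counting ignored strand, reads from shared stretches cannot be assigned with certainty.

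*KCNE3*, a single-pass partner of KCNQ1 in epithelia, had 0, 34.5 and 64.7 normalized counts in rRPE libraries, 2.17, 28.9 and 57.3 in t-rRPE libraries and 127, 75.1 and 121 in RPE libraries, low in every injured library (limma log2 fold change -3.0 ± 1.70 (SE), adjusted p = 0.545 for rRPE and -2.58 ± 1.70 (SE; limma, adjusted p = 0.587) for t-rRPE). *KCNAB2* and *KCNE3* were the only members below RPE without overlap in both injured groups (2.35%, against 3.30% of all genes); both were named after their values were seen. *KCNIP4* and *KCNIP2* encode calcium-binding partners of KCND subunits. *KCNIP4* had 1529, 918 and 730.0 normalized counts in rRPE libraries, 1483, 766 and 1599 in t-rRPE libraries and 1039.8, 525 and 466 in RPE libraries, with overlap in all comparisons (limma log2 fold change 0.94 ± 0.42 (SE), adjusted p = 0.399 for t-rRPE). *KCNIP2* had no read in any rRPE library, against 55.3, 50.4 and 36.5 normalized counts in t-rRPE libraries and 0, 25.8 and 20.7 in RPE libraries. This is at least 15.1-fold lower in rRPE than in t-rRPE against a floor of 3 reads per library, with a limma adjusted p of 0.241.

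Inward rectifiers (KCNJ, 9 genes) pass potassium into the cell more readily than out of it and hold the membrane near the potassium potential. *KCNJ13*, the RPE member, had 1517, 1421 and 2971 normalized counts in rRPE libraries, 5333, 1706 and 5022 in t-rRPE libraries and 1018, 1571 and 1156 in RPE libraries. The t-rRPE libraries stood above the RPE libraries, narrowly so for t-rRPE library 2 and by a wide margin for the others, and the rRPE libraries overlapped both groups. In t-rRPE over RPE the difference did not pass limma's threshold (limma log2 fold change 1.54 ± 0.43 (SE), adjusted p = 0.179; edgeR adjusted p = 0.181), while DESeq2 gave an adjusted p of 0.00386. In rRPE the gene had a log2 fold change of -0.94 ± 0.43 (SE; limma, adjusted p = 0.538) over t-rRPE. *KCNJ13* overlaps *GIGYF2* in RefSeq, and unstranded reads from the overlap cannot be assigned with certainty. *GIGYF2* had 1169, 1167 and 1145 in rRPE, 907, 1595 and 1267 in t-rRPE and 1519, 1648 and 1301 in RPE libraries, with t-rRPE overlapping RPE (limma log2 fold change -0.28 ± 0.26 (SE), adjusted p = 0.69) and rRPE below RPE.

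*KCNJ5* and *KCNJ3* encode subunits of G-protein-gated inward rectifiers, which open when Gi-coupled receptors are active and work together in the atrium of the heart. *KCNJ5* had 589.8, 666 and 1025 normalized counts in rRPE libraries, 173, 27.1 and 218 in t-rRPE libraries and 57.7, 682 and 115 in RPE libraries. All rRPE libraries lay above all t-rRPE libraries (limma log2 fold change 2.86 ± 0.97 (SE), adjusted p = 0.394), and RPE library 2 lay within the rRPE range. Its neighbour on chromosome 24, *KCNJ1*, overlaps it in RefSeq and did not share the pattern, with 92.4, 137 and 288 in rRPE, 907, 123 and 134 in t-rRPE and 136, 399 and 161 in RPE libraries. *KCNJ3* had 276, 30.3 and 222 normalized counts in rRPE libraries, 183, 0 and 0 in t-rRPE libraries and 102, 0 and 54.6 in RPE libraries, and each group held a library under 100 normalized counts. *KCNJ2*, the strong inward rectifier of muscle and many resting cells, had 141, 235 and 284 normalized counts in rRPE libraries, 167, 426 and 218 in t-rRPE libraries and 220.1, 549 and 555 in RPE libraries, with overlap between all groups. The other 4 KCNJ genes averaged between 6.94 (*KCNJ11*) and 194 (*KCNJ8*) normalized counts.

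**Figure D4:**
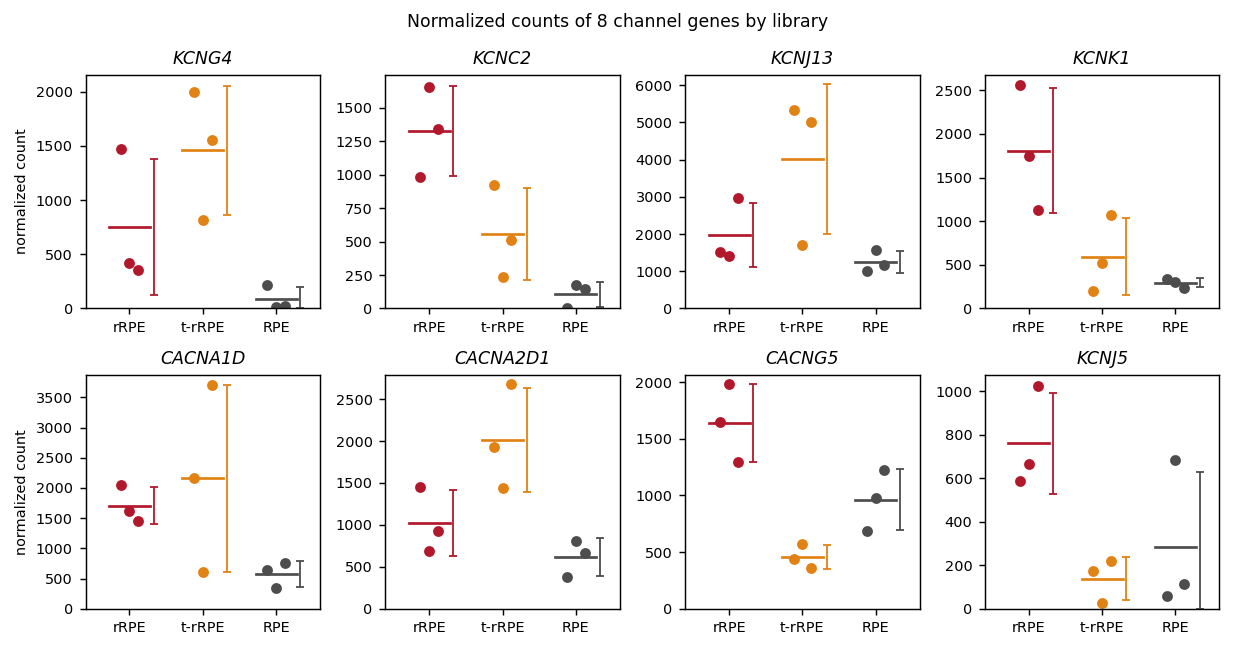
Normalized counts of 8 channel genes in each library (points), with the group mean (horizontal line) and ± 1 SD (bracket, cut at 0). *KCNG4* and *KCNC2* lie above RPE in both injured groups, *KCNK1* stands highest in rRPE, *KCNJ13* and *CACNA2D1* reach their highest counts in t-rRPE, and *CACNG5* lies above RPE in rRPE and below it in t-rRPE.

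Tandem-pore KCNK channels carry the potassium leak that holds the resting potential. The 8 genes summed to 4140.1, 3778 and 4772 in rRPE, 2653, 1389 and 3698 in t-rRPE and 1436, 1624 and 1696 in RPE libraries, so that each rRPE library stood above every RPE library, with a ratio of means of 2.67. *KCNK1*, a weakly conducting member, made up the largest share of that difference with 2560.4, 1743 and 1126 normalized counts in rRPE libraries, 196, 516 and 1073 in t-rRPE libraries and 336, 307 and 239.8 in RPE libraries. The 3 RPE values were close together, all rRPE libraries lay above all t-rRPE and RPE libraries, and the t-rRPE libraries ran from below to above RPE. The rRPE over RPE difference just missed limma's threshold (limma log2 fold change 2.55 ± 0.56 (SE), adjusted p = 0.0592; edgeR adjusted p = 0.0774, DESeq2 adjusted p = 0.000127), and that of rRPE over t-rRPE was 1.84 ± 0.56 (SE; limma, adjusted p = 0.33). Without t-rRPE library 1, which is outside that comparison, the limma adjusted p for rRPE over RPE was 0.0375, past the threshold. Of the fits that left out 1 library, it was the only 1 to call the gene. Over the 21 alternative fits 3 called it, and the limma adjusted p reached 0.297.

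*KCNK2*, a leak channel sensitive to stretch, lipids and temperature, had 1064, 1871 and 3265 normalized counts in rRPE libraries, 2093, 513 and 1750.4 in t-rRPE libraries and 736, 1156 and 1304 in RPE libraries, with overlap in all comparisons. *KCNK5*, an acid-sensitive leak channel of kidney epithelium, was measured at 507, 112 and 274 normalized counts in rRPE libraries, 283, 359 and 568 in t-rRPE libraries and 165, 125 and 78.4 in RPE libraries. It was higher in t-rRPE than in RPE without overlap (limma log2 fold change 1.71 ± 0.66 (SE), adjusted p = 0.329) and overlapped between rRPE and RPE; it was named after its values were seen. The other 5 KCNK genes averaged between 4.10 (*KCNK18*) and 59.4 (*KCNK12*) normalized counts, and *KCNK13* and *KCNK18* each had reads in a single t-rRPE library.

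Potassium channels gated by internal calcium or sodium numbered 8. *KCNMA1*, the pore of the large-conductance BK channel, which has been recorded in RPE, had 828, 1589 and 1336 normalized counts in rRPE libraries, 1178, 430.2 and 1763 in t-rRPE libraries and 1119.5, 653 and 583 in RPE libraries, and all groups overlapped. Its beta subunit gene *KCNMB4*, which slows the channel, had 50.8, 118 and 25.7 normalized counts in rRPE libraries, 0, 0 and 44.3 in t-rRPE libraries and 58.6, 32.8 and 31.5 in RPE libraries. There, 2 t-rRPE libraries were at 0 and the third lay within the range of the other groups (limma log2 fold change -3.50 ± 1.59 (SE), adjusted p = 0.401 for t-rRPE against RPE). *KCNN2*, a small-conductance channel opened by calcium through calmodulin, had 125, 128 and 86.2 normalized counts in rRPE libraries, 211, 199.7 and 50.8 in t-rRPE libraries and 57.7, 273 and 115 in RPE libraries, again overlapping. The other 5 averaged between 2.97 (*KCNN3*) and 116 (*KCNT2*) normalized counts.

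Calcium channel pores (CACNA1, 7 genes) were led by *CACNA1D*, an L-type channel that opens at comparatively negative potentials and is known from RPE, sensory cells and the heart pacemaker. It had 2049, 1622 and 1452 normalized counts in rRPE libraries, 2159, 614 and 3704 in t-rRPE libraries and 634, 341 and 751 in RPE libraries. All rRPE libraries stood above all RPE libraries, and so did t-rRPE libraries 1 and 3, while t-rRPE library 2 lay within the RPE range. The log2 fold changes over RPE were 1.63 ± 0.55 (SE; limma, adjusted p = 0.234) in rRPE and 1.64 ± 0.55 (SE; limma, adjusted p = 0.268) in t-rRPE, and neither passed limma's threshold; DESeq2 gave an adjusted p of 0.0542 in rRPE and 0.0112 in t-rRPE. The other L-type gene of the heart and smooth muscle, *CACNA1C*, was found at low counts, 0, 0 and 49.3 normalized counts in rRPE libraries, 0, 0 and 22.2 in t-rRPE libraries and 48.0, 57.1 and 66.9 in RPE libraries. Its t-rRPE counts lay below all RPE counts (limma log2 fold change -4.34 ± 1.83 (SE), adjusted p = 0.382), with 2 libraries at 0 in each injured group. *CACNA1C* overlaps *DCP1B* in RefSeq, for which the counts were 1438, 1226 and 1124 in rRPE, 2389, 2297 and 1538 in t-rRPE and 1177, 770.4 and 1318 in RPE libraries.

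*CACNA1B*, the N-type channel of nerve terminals, had 0, 3.13 and 5.13 normalized counts in rRPE libraries, 91.1, 76.5 and 18.2 in t-rRPE libraries and 64.4, 28.9 and 23.1 in RPE libraries. Its rRPE counts lay below those of both other groups (limma log2 fold change -4.14 ± 1.29 (SE), adjusted p = 0.344 against t-rRPE and -3.62 ± 1.29 (SE; limma, adjusted p = 0.263) against RPE). *CACNA1G*, a low-threshold T-type channel, had 395, 291 and 928 normalized counts in rRPE libraries, 849.6, 492 and 339 in t-rRPE libraries and 912, 585 and 373 in RPE libraries, with full overlap. A further T-type gene, *CACNA1H*, was found in all rRPE libraries at 44.7, 14.6 and 69.8 normalized counts, in no t-rRPE library and in 1 RPE library at 40.7; it was named after its values were seen. It was at least 11.0-fold higher in rRPE than in t-rRPE against a floor of 3 reads per library (limma adjusted p = 0.335). *CACNA1E* and *CACNA1S* averaged 53.2 and 69.1 normalized counts.

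CACNA2D and CACNB subunits bring calcium channel pores to the cell surface and tune their gating. *CACNA2D1* had 1458, 685 and 932 normalized counts in rRPE libraries, 1933, 1440.0 and 2675 in t-rRPE libraries and 374, 813 and 671 in RPE libraries. Every t-rRPE library lay above every RPE library (limma log2 fold change 1.73 ± 0.39 (SE), adjusted p = 0.089; edgeR adjusted p = 0.131, DESeq2 adjusted p = 0.00184). The rRPE libraries overlapped both groups, and their log2 fold change over t-rRPE was -1.0 ± 0.39 (SE; limma, adjusted p = 0.5). *CACNA2D2* had 109.6, 96.1 and 268 normalized counts in rRPE libraries, 122, 39.2 and 471 in t-rRPE libraries and 46.1, 120.5 and 264 in RPE libraries, and all groups overlapped. *CACNB4* had 32.5, 43.9 and 0 normalized counts in rRPE libraries, 329.9, 0 and 224 in t-rRPE libraries and 0, 0 and 96.1 in RPE libraries, with a library at 0 in every group. *CACNB2*, which overlaps *NSUN6* in RefSeq, had 124, 0 and 60.6 normalized counts in rRPE libraries, 82.5, 14.9 and 14.3 in t-rRPE libraries and 0, 0 and 7.68 in RPE libraries, higher in t-rRPE than in RPE without overlap but at counts that the test could not separate (limma log2 fold change 3.73 ± 1.89 (SE), adjusted p = 0.451). *CACNA2D3* and *CACNB1* averaged 5.03 and 12.9 normalized counts.

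The 3 CACNG genes found, *CACNG3*, *CACNG4* and *CACNG5*, are named as calcium channel gamma subunits but encode proteins best known for binding AMPA-type glutamate receptors and guiding them to the membrane. *CACNG5* had 1646, 1979 and 1294 normalized counts in rRPE libraries, 436, 569 and 361 in t-rRPE libraries and 685, 977 and 1223 in RPE libraries. The 3 groups did not overlap: rRPE stood highest, RPE in the middle and t-rRPE lowest. It was the only member to lie below RPE in t-rRPE and above RPE in rRPE (1 of 85, against 0.145% of all genes). The log2 fold change of rRPE over t-rRPE was 1.85 ± 0.33 (SE; limma, adjusted p = 0.0987), with DESeq2 adjusted p = 1.58e-05 and edgeR adjusted p = 0.143. Against RPE it was -1.06 ± 0.33 (SE; limma, adjusted p = 0.218) in t-rRPE and 0.79 ± 0.33 (SE; limma, adjusted p = 0.357) in rRPE. No limma call resulted from any of the 3.

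*CACNG4*, which lies on chromosome 18 with 1 gene between it and *CACNG5*, had 697, 1069 and 249 normalized counts in rRPE libraries, 33.6, 908 and 59.96 in t-rRPE libraries and 231, 501 and 298 in RPE libraries. The t-rRPE libraries spanned nearly the whole range, from lowest to second highest of all 9, so that no comparison separated the groups (limma log2 fold change 2.20 ± 1.05 (SE), adjusted p = 0.561 for rRPE against t-rRPE). *CACNG3* had 734, 319.6 and 510.3 normalized counts in rRPE libraries, 711, 647 and 134 in t-rRPE libraries and 648, 738 and 991 in RPE libraries, with overlap. Summed over the 3 genes, the counts were 3077, 3367 and 2053 in rRPE, 1181, 2124 and 555 in t-rRPE and 1564, 2216 and 2511 in RPE libraries.

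Sodium channel genes were few and had few reads. Their 9 summed counts were 1089, 603 and 989.7 in rRPE, 893, 261 and 1378 in t-rRPE and 898, 662 and 663 in RPE libraries, and the groups overlapped. Among the pore-forming genes, *SCN8A*, a channel of the axon initial segment, had 318, 262 and 106 normalized counts in rRPE libraries, 27.1, 37.3 and 517 in t-rRPE libraries and 28.8, 178 and 113 in RPE libraries, and *SCN9A*, known from sensory and sympathetic neurons, had 144, 6.27 and 71.9 normalized counts in rRPE libraries, 11.9, 136 and 91.2 in t-rRPE libraries and 568, 46.9 and 184 in RPE libraries. Both overlapped in all comparisons.

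*SCN2A*, a channel of central axons, had no read in any rRPE library, 0, 0 and 22.2 normalized counts in t-rRPE libraries and 11.5, 164 and 41.5 in RPE libraries. It was at least 23.1-fold lower in rRPE than in RPE against a floor of 3 reads per library, and without RPE library 2 at least 8.46-fold (limma adjusted p = 0.148, DESeq2 adjusted p = 0.0541). Of the beta subunits, which modulate the pores and also act in cell adhesion, *SCN3B* had 490.4, 263 and 714 normalized counts in rRPE libraries, 712, 14.9 and 607 in t-rRPE libraries and 224, 229.9 and 303 in RPE libraries. t-rRPE library 2 was far below all others, and the groups overlapped. *SCN3B* overlaps *GRAMD1B* in RefSeq, which had 437 to 1455 normalized counts per library, and unstranded reads from the overlap cannot be assigned with certainty. *SCN2B* was read in 4 of the 9 libraries, at 49.7, 0 and 0 normalized counts in rRPE libraries, 140.0, 29.9 and 0 in t-rRPE libraries and 0, 43.8 and 0 in RPE libraries. Of the other sodium channel genes, *SCN4A* averaged 8.64 and *SCN4B* 12.8 normalized counts.

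Genes that work beside these channels were looked up in lists chosen for their function. Of 44 other channels of the same superfamily, such as the cyclic-nucleotide-gated and TRP types, 26 were found and 1 was a DEG, in t-rRPE against RPE (0.671% of all genes were). This was *TRPM3*, a calcium-permeable channel of the RPE and choroid plexus, with 5125, 3504 and 6282 normalized counts in rRPE libraries, 6440.0, 9155 and 9508 in t-rRPE libraries and 2617, 2866 and 2301 in RPE libraries. It rose in t-rRPE without overlap with RPE (limma log2 fold change 1.67 ± 0.23 (SE), adjusted p = 0.0123), and its log2 fold change in rRPE was 0.90 ± 0.23 (SE; limma, adjusted p = 0.104). The call was held by edgeR (adjusted p = 0.0194) and DESeq2 (adjusted p = 3.26e-09) and lost by limma without rRPE library 1 (adjusted p = 0.0738), t-rRPE library 2 (0.0596) or 3 (0.0783), or RPE library 1 (0.0757), 2 (0.108) or 3 (0.113). Its relative *TRPM1*, a channel of melanocytes and retinal ON bipolar cells, had 12251, 11954 and 18436 normalized counts in rRPE libraries, 21713, 32904 and 32399 in t-rRPE libraries and 13277, 22462 and 23858 in RPE libraries. It was lower in rRPE than in t-rRPE without overlap but not past limma's threshold (limma log2 fold change -1.03 ± 0.25 (SE), adjusted p = 0.216), while DESeq2 called it. DESeq2 also called *MCOLN3* in that comparison, and *MCOLN3* and *TRPM3* in t-rRPE against RPE. By limma, 6 of the 26 passed an unadjusted p of at most 0.05 in t-rRPE against RPE (23.1%, against 12.4% of all genes). The counts were 1 in rRPE against RPE (3.85%, against 12.0%) and 7 in rRPE against t-rRPE (26.9%, against 9.31%).

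The other lists held no DEG by limma or edgeR in any of the 3 comparisons. In the RPE ion transport list, *ATP1B1* was lower in rRPE than in RPE without overlap, by less than the fold threshold (limma log2 fold change -0.84, adjusted p = 0.0362). Of 38 genes that traffic, anchor or regulate channels, 24 were found. By limma, 3 passed an unadjusted p of at most 0.05 in rRPE against RPE (12.5%, against 12.0% of all genes) and 3 in t-rRPE against RPE (12.5%, against 12.4%). DESeq2 called 1 in each, *RRAD*, as higher (4.10% and 3.55% of all genes with an adjusted p were called). *RRAD* had 0, 87.7 and 69.8 normalized counts in rRPE libraries, 0, 198 and 0 in t-rRPE libraries and 0 in every RPE library. Its t-rRPE value rests on 1 library, and limma called it in neither (adjusted p = 0.515 in rRPE and 0.677 in t-rRPE). Of 52 further RPE ion transport genes, 41 were found; 5 passed an unadjusted p of at most 0.05 in rRPE against RPE (12.2%, against 12.0%) and 7 in t-rRPE against RPE (17.1%, against 12.4%), and DESeq2 called *SLC4A4* in both and *SLC4A7* in t-rRPE. Of 12 genes of the REST complex, a repressor of neuronal channel genes, 9 were found; 1 passed an unadjusted p of at most 0.05 in rRPE against RPE (11.1%, against 12.0%) and 0 did in t-rRPE against RPE, and DESeq2 called 0.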

How the data were processed

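RNA from laser-captured RPE was reverse-transcribed with an oligo(dT) primer, amplified with a low-input kit and sequenced without strand information. Per the study's methods and the submitters' processing notes, the authors trimmed reads with Trim Galore 0.6.1 and cutadapt 1.18, aligned them to GRCg6a with STAR 2.7.3, counted genes with StringTie 2.0.4 and divided the counts by DESeq2 1.22.2 size factors. The deposited signal is this normalized count per gene. Dividing each library by its smallest step returned whole reads for every value (tolerance 1e-06), which gave 26167206 to 45563924 reads on genes per library and the input for edgeR 4.0.16 and DESeq2 1.42.0.

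The main test was limma 3.58.1 with a trend on log2(normalized count + 1), 1 mean per group over all 9 libraries, a filter that kept genes summing to 20 or more normalized counts, and Benjamini-Hochberg adjustment over all 16535 genes tested. The steps were tested on simulated data with large changes in genes that had reads in intact RPE. That test cannot show how they perform for small changes or for genes without such reads. A fold change on this scale compares mean log2 values: a library at 0 weighs heavily in it, so that for genes with few counts it can lie above or below the ratio of the group means (for *KCNC4* in rRPE over RPE, 5.77 by limma and 3.50 by DESeq2). Where each library of a group had at most 3 reads, a bound against 3 reads per library replaced the fold; intervals and floors of this kind cover counting error only. The 21 alternative fits used another offset, filter, scaling, sample set, tool or replicate block, or left out 1 library.

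The members and gene lists were chosen with earlier results of these data known. Members named were those called, the 6 higher and 6 lower with the lowest p per comparison among those averaging at least 20 normalized counts, the 2 with the highest mean per family, and 14 known in RPE or retina, of which 4 (*KCNJ10*, *KCNV2*, *CACNA1F* and *CACNA2D4*) were not analysed here; others, named as ends of a range or for a count, were chosen after their values were seen. Symbols of 84 of the 85 members matched RefSeq (assembly GRCg7b, another build than that of the files), which was used for chromosomes, neighbours and overlaps only. Overlaps there not given above include *KCNIP4* with *PACRGL*, *KCNQ5* with *LOC124417859*, *KCNJ5* with *ARHGAP33*, *KCNC1* with *SERGEF* and *KCNS1* with *STK4*. Unstranded reads from these stretches cannot be assigned with certainty either. Some members are counted but not reported singly here. Sequences are not shown.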

Additional observations from a re-analysis of the deposited data

Results flagged for a closer look

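*CACNG5*, the gene of an AMPA receptor partner, stood on opposite sides of RPE in the injured groups: every t-rRPE library lay below and every rRPE library above every RPE library. The difference between them was a log2 fold change of 1.85 ± 0.33 (SE; limma, adjusted p = 0.0987) for rRPE against t-rRPE, with DESeq2 adjusted p = 1.58e-05 and edgeR adjusted p = 0.143. Over all alternative fits its adjusted p ranged between 1.58e-05 and 0.272, and its log2 fold change between 1.69 and 2.02. The summed lens marker counts, 19819 to 45677 in rRPE, 43109.5 to 362043 in t-rRPE and 389 to 876 in RPE libraries, did not follow the same order; their part in the result was not tested. Single libraries far from their group were not tested, since groups of 3 are too small for it.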

How the results depend on the processing

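With edgeR, with limma without the trend, or with only the 6 samples of the groups compared, 0 channel genes were called in t-rRPE against RPE, against 1 in the main analysis; DESeq2 called 6. In rRPE against RPE, DESeq2 called 3, and the fit of the 6 samples alone called 2, *KCNK1* among them, against 0 in the main analysis; in rRPE against t-rRPE, DESeq2 called 1 against 0. Leaving out 1 library at a time gave between 0 and 1 calls in t-rRPE against RPE and between 0 and 1 in rRPE against RPE, while the calls over all genes ran between 0 and 109 in the first and between 0 and 187 in the second. The cause of these differences was not tested. Over all genes the calls in t-rRPE against RPE numbered 111 by limma, 48 by edgeR and 507 by DESeq2, in rRPE against RPE 170.0 by limma, 101 by edgeR and 575 by DESeq2, and in rRPE against t-rRPE 9 by limma, 6 by edgeR and 230.0 by DESeq2.

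Replicate numbers are shared between groups in the labels. Over all genes tested, same-numbered libraries did not deviate together (correlations between -0.031 and 0.06). A correlation over all genes could not show a link that touches few of them. With the replicate block, 1 channel gene, *KCNG4*, was called in rRPE against RPE (limma adjusted p = 0.0277) and 1 in t-rRPE against RPE (limma adjusted p = 0.0157).

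Of 756 alternative values for 36 gene and comparison pairs, 732 kept their direction and their side of the threshold, 11 lost the threshold, 13 gained it and 0 reversed. The only pair called in the main fit, *KCNG4* in t-rRPE against RPE, was called in 10 of its 21 alternative fits, and the 11 losses were all its own. Every other pair was chosen for a low p and not called, so keeping its side meant staying uncalled. Leaving out 1 library moved the fitted fold by over 1.5 times in 24 of the 36 pairs. The summed channel counts, for which the alternatives were chosen after seeing the data, gave ratios to RPE between 1.42 and 1.58 for rRPE and between 1.41 and 1.80 for t-rRPE. Another scaling moved no library by over 0.1 on the log2 scale. With 3 libraries a group and 25 members under 20 normalized counts on average, depth and spread limit what could be detected in genes with few reads.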
